A study of Mus musculus with 10 samples.

Results

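Transcripts of 10 genes that work in mitosis, Cdk1, Ccnb1, Ccnb2, Plk1, Aurka, Bub1, Birc5, Cdc20, Top2a and Mki67, were followed in mouse liver during feeding with a diet high in fat and cholesterol. Each gene was represented by the probe set that carried its symbol alone and had the highest mean log2 signal over all arrays. Of the 10 genes, 9 had such a probe set and are described here. Ccnb1, which encodes cyclin B1, is named only, because no probe set carried its symbol alone. The mean of 6 measured genes lay above the level filter, and these were among the 11062 genes tested. Plk1, Bub1 and Birc5 lay under the filter, which was set at 3.73 on the log2 scale.

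Female mice of 2 inbred strains were used, C57BL/6J, called B6 here, and DBA/2J, called D2, and livers were taken after 0, 1, 4, 12 or 21 weeks of the diet. Each strain thus had 1 group before the diet and 4 fed groups, with no group on another diet at the later weeks, so that time on the diet and age moved together. Equal amounts of RNA from 5 mice made up each group's pool, and every pool was read on a single Affymetrix mouse expression array, which gave 10 arrays and no measure of the spread between animals. The ages of the mice are not in the labels. The arrays' trimmed mean signal ranged from 55.8 to 88.7 and was lowest in both week 0 arrays, and the arrays were therefore quantile normalised. Levels are log2 normalised signals, and differences are on the log2(signal + 1.05) scale. The hepatocyte gene Alb, albumin, stood at 12.51 to 12.64 on every array, and the summed normalised signal of 10 hepatocyte markers ranged from 48693 to 55932.

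A cell enters mitosis when cyclin B activates the kinase Cdk1. Polo-like and Aurora kinases then build the spindle, the checkpoint holds back anaphase until every chromosome is attached, and Cdc20 with the anaphase-promoting complex ends mitosis by marking cyclin B and securin for destruction. Most hepatocytes of an adult liver are not cycling, but they can return to the cell cycle after loss of tissue or injury. Transcription of these genes is held down outside the cycle by the DREAM complex and raised before mitosis by B-Myb and FoxM1, largely through a promoter element called CHR (cell cycle genes homology region), often beside CCAAT boxes that bind NF-Y.

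The promoters of the members are shown first because most of them carry these elements. RefSeq promoters (GRCm38.p6, 250 bases before to 50 after the annotated start) matched 10 of 10 members by symbol. They were searched on both strands for CHR (TTTGAA or TTCGAA), the CCAAT box (CCAAT) and an E2F site (TTGGCGC or TTCGCGC). On the reverse strand the E2F letters can share bases with a CCAAT box, as they do in Ccnb1. A CHR match was found in 8 of 10 members and in 19.2% of all 32851 promoters, and a CCAAT match in 9 of 10 members and in 37.4% of all. Both stood in the same promoter in 8 members, against 7.52% of all promoters, and a CHR with at least 2 CCAAT boxes in 7 members, against 2.31%. An E2F match was present in Cdk1, Ccnb1 and Mki67, 3 of 10 members, and in 3.89% of all promoters. Ccnb1 had 2 CCAAT matches and no CHR match in this window, and Birc5 had no match to any of the 3 motifs. These matches describe letters, and binding was not measured.

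Stretches of 5 promoters are printed 5′ to 3′ on the gene's strand, with CHR and CCAAT letters of either strand in capitals (a reverse strand CCAAT reads ATTGG here, and a reverse strand TTTGAA reads TTCAAA). They are those of the 2 measured genes of the cyclin B kinase (Cdk1 at chr10:69352917-69352998, Ccnb2 at chr9:70421540-70421649), of Cdc20 (chr4:118437346-118437403), which had the largest difference between week 1 and later weeks among the tested members, and of the chromosome proteins Top2a (chr11:99024201-99024344) and Mki67 (chr7:135716437-135716572). All 5 genes lie on the minus strand.
Cdk1: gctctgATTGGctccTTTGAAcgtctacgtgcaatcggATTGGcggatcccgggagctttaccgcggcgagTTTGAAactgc
Ccnb2: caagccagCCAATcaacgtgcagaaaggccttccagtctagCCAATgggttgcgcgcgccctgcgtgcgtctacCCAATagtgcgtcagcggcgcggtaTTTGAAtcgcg
Cdc20: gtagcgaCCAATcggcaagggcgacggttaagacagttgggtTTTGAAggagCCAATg
Top2a: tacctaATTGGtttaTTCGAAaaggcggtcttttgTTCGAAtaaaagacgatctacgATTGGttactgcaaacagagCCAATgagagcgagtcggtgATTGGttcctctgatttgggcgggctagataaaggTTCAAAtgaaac
Mki67: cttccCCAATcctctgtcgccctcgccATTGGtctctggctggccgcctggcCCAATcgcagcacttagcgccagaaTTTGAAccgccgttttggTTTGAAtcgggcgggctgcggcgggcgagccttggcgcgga

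In Cdc20 the CHR stood between 2 CCAAT boxes, its first base 18 bases before the start. Cdk1 carried 2 CHR matches, the nearer beginning 15 bases before the start, with CCAAT boxes beginning 80 and 48 bases before it. Ccnb2 had 3 CCAAT boxes, beginning 87, 54 and 21 bases before the start, and a CHR beginning 5 bases into the transcript. Top2a held the most matches of the members, 4 CHR and 6 CCAAT in its whole window. Mki67 held 2 CHR and 3 CCAAT matches, all more than 90 bases before the start.

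**Figure D1:**
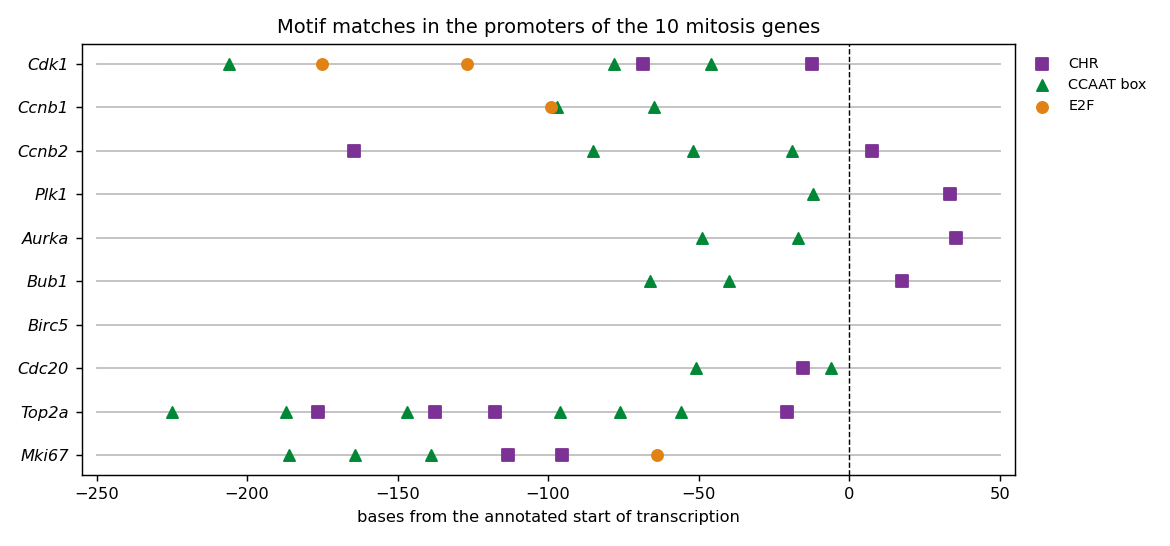
Positions of CHR, CCAAT box and E2F matches in the promoter windows of the 10 mitosis genes, in bases from the annotated start of transcription (dashed line); each symbol is the middle of 1 match on either strand. A CHR stands with at least 1 CCAAT box in 8 of the 10 promoters, and the Birc5 window is empty.

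The 73 other mitosis genes with a promoter entry, from lists of kinases and cyclins, kinetochore, spindle, and condensin and anaphase genes, had 82 promoters, of which 64.6% held a CHR, 67.1% a CCAAT box and 41 promoters both. In the 29 promoters of DNA replication genes the CHR share was 17.2% and the E2F share 37.9%.

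Among the arrays, the members' levels were highest in B6 at week 1. All 9 measured members had their highest value of the 10 arrays there, whereas 10.2% of the 11062 genes tested did. The second highest value lay in B6 at week 4 for 4 members (Cdk1, Plk1, Top2a and Mki67), in D2 at week 1 for 4 (Ccnb2, Aurka, Birc5 and Cdc20) and in D2 at week 0 for Bub1. Within D2, week 0 was highest for 5 members and week 1 for 4. These orders are those of the chosen probe sets, and other probe sets of Aurka, Bub1, Cdc20 and Top2a gave other orders within D2. The lowest probe sets of Aurka, Cdc20 and Top2a were not highest in B6 at week 1. The range over the weeks was wider in B6 than in D2 for 9 of 9 members, 1.95 to 3.11 against 1.08 to 2.89 log2 units. Each B6 range includes the week 1 array, so this count largely restates that peak, and no share over all genes is given. Leaving that array out, Aurka, Birc5, Ccnb2 and Cdc20 had the narrower range in B6, and the other members still had the wider. In these pooled bulk samples, more cells of a dividing kind and more RNA per cell cannot be told apart.

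Cdk1 encodes the kinase whose activation starts mitosis. Its levels at weeks 0, 1, 4, 12 and 21, the order used for every gene below, were 4.60, 6.63, 5.47, 4.27 and 4.48 in B6 and 5.35, 4.92, 4.27, 4.30 and 4.98 in D2. B6 at weeks 1 and 4 lay above every D2 array, while the other B6 arrays lay at or below the middle of the D2 range. B6 at week 1 lay 2.02 log2 units above B6 at week 0 and 1.70 above D2 at week 1.

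Ccnb2, cyclin B2, is a partner of Cdk1. Its B6 levels were 4.85, 6.37, 4.75, 4.31 and 3.68, and its D2 levels 4.40, 5.17, 3.94, 4.30 and 4.22. Week 1 was the highest array of both strains, and the remaining arrays of the strains overlapped. In B6, week 1 lay 1.52 log2 units above week 0.

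Aurka encodes Aurora kinase A, which matures centrosomes and builds the spindle. B6 levels were 4.04, 5.85, 4.18, 3.90 and 3.92 over the weeks, and D2 levels 3.91, 4.49, 2.86, 3.13 and 2.64. Week 1 was again highest in both strains, and B6 lay above D2 at each of the 5 weeks. In B6 the 4 arrays other than week 1 lay within 3.90 to 4.18, while in D2 the 3 later fed arrays lay below week 0. The other Aurka probe set, low on all arrays, did not follow this order: it stood at 0.70 in B6 at week 1 and was highest in D2 at week 4, at 3.29.

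Plk1, polo-like kinase 1, acts from mitotic entry to cell division. Its levels were low: 3.77, 4.92, 4.00, 2.49 and 3.60 in B6 and 3.75, 2.61, 2.60, 3.43 and 2.62 in D2. The strains were within 0.1 of each other at week 0 and far apart at week 1, where B6 lay 2.31 log2 units above D2. At week 12 the order was the other way, with D2 above B6.

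Bub1 is a kinase of the spindle checkpoint at the kinetochore. Its probe set had the lowest mean among the members, at the 18.7th percentile of all probe sets, with B6 levels of 0.91, 3.16, 2.86, 0.32 and 1.88 and D2 levels of 2.92, 2.30, 2.66, 1.63 and 0.89. B6 at week 1 was highest by a small margin over D2 at week 0. The other Bub1 probe set was also highest in B6 at week 1, at 3.94, and its lowest B6 level was at week 12 (0.42).

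Birc5 encodes survivin, a subunit of the chromosomal passenger complex with Aurora kinase B. B6 levels were 3.15, 6.26, 4.72, 3.70 and 3.21, and D2 levels 3.88, 4.98, 2.10, 2.19 and 2.87. Both strains were highest at week 1, which in B6 lay 3.11 log2 units above week 0. The mean of Birc5, 3.71, lay just under the level filter.

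Cdc20 activates the anaphase-promoting complex. Its B6 levels were 4.55, 6.96, 4.75, 4.13 and 4.10, and its D2 levels 4.54, 5.29, 4.01, 4.11 and 4.23. The strains were equal within 0.1 at weeks 0 and 12, and both were highest at week 1. B6 at week 1 stood 2.42 log2 units above B6 at week 0. A further Cdc20 probe set gave 7.63 in B6 at week 1 and 5.44 in D2. At week 0 it stood at 3.57 in B6 and 5.46 in D2. On that probe set the strains were thus not equal before the diet, and D2 was highest at week 0. A low probe set was highest in B6 at week 21, at 4.53.

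Top2a encodes DNA topoisomerase II alpha, which untangles sister chromosomes. Its levels were 4.06, 6.49, 5.28, 3.98 and 3.50 in B6 and 4.68, 3.94, 3.31, 3.68 and 3.59 in D2. D2 was highest before the diet and had no high value at week 1, where B6 lay 2.55 log2 units above D2. A lower Top2a probe set was also highest in B6 at week 1, at 4.17 against 3.23 in D2. Within D2 it was highest at week 4 (3.62), with 3.22 at week 0. The lowest Top2a probe set was highest in D2 at week 21, at 1.55.

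Mki67 encodes Ki-67, which coats mitotic chromosomes and is used as a marker of cycling cells. B6 levels were 3.54, 6.53, 5.80, 4.09 and 3.86, and D2 levels 4.95, 4.56, 3.87, 4.45 and 4.11. Every fed B6 array lay above B6 at week 0, and every fed D2 array lay below D2 at week 0. The level in B6 at week 1 was 2.99 log2 units above that at week 0.

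**Figure D2:**
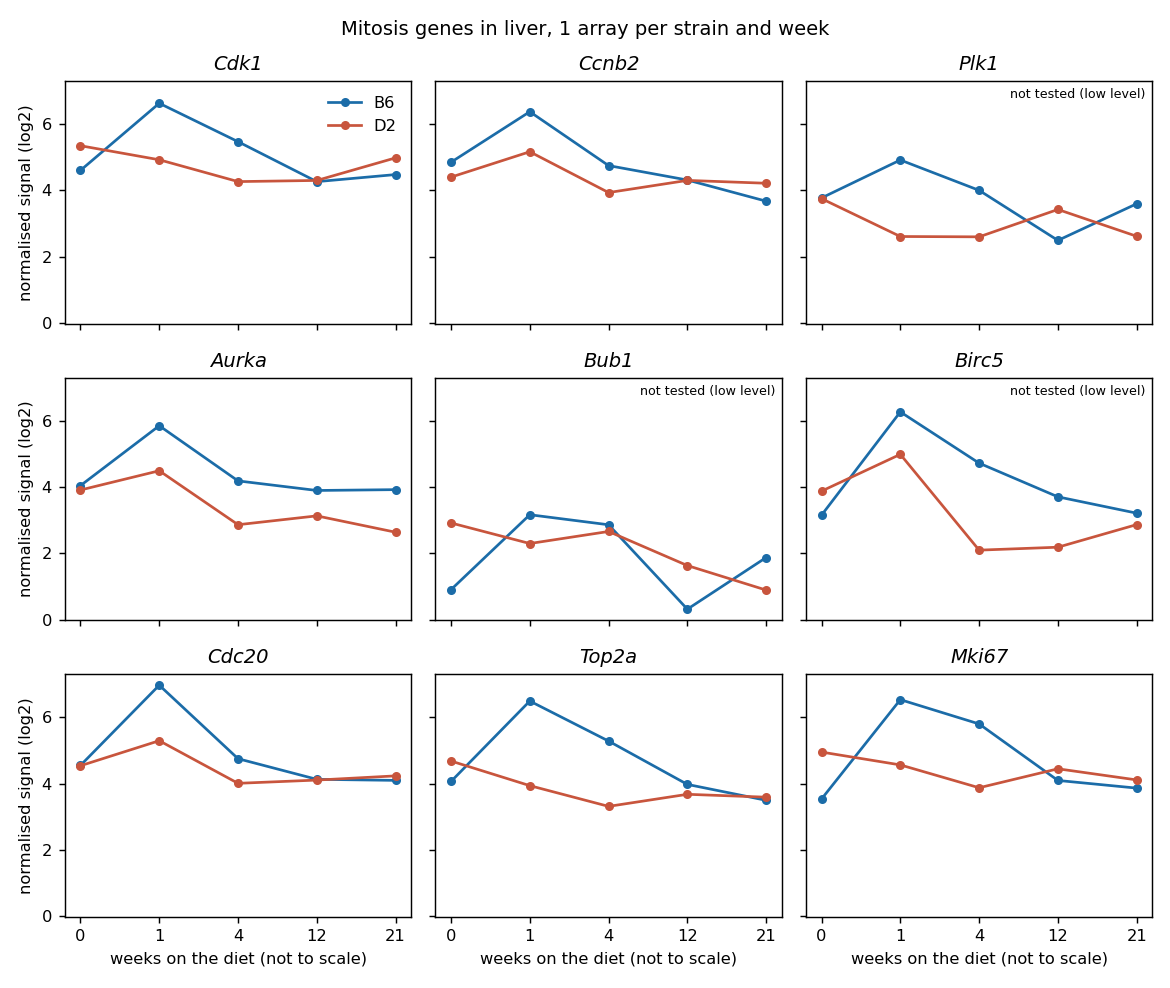
Normalised log2 signal (vertical axis) of the 9 measured mitosis genes at each week on the diet (horizontal axis, not to scale), with 1 point per array, blue for B6 and red for D2; there is no error bar because each point is 1 pool of 5 mice. In each of the 9 panels the B6 array at week 1 is the highest point.

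Set side by side at each week, the members were lower in D2 than in B6 at week 1 in 9 of 9 cases, with differences from −2.55 to −0.867 and a median of −1.67, and at week 4 in 9 of 9, with a median of −1.32. At the other weeks the direction was mixed. At week 0, 4 were lower and 5 higher in D2 (median 0.617), at week 12 the counts were 5 and 4 (median −0.011), and at week 21 they were 4 and 5 (median 0.095). Averaged over the 6 tested members, each centred on its own mean, B6 stood at −0.21, 1.99, 0.55, −0.37 and −0.56 over the weeks and D2 at 0.15, 0.24, −0.77, −0.49 and −0.52. The 15 pairs of tested members had Pearson correlations of 0.70 to 0.96 over the 10 arrays, with a median of 0.84. Without the B6 array at week 1 the range was 0.33 to 0.88 and the median 0.57, so the correlations are a description that leans on 1 array.

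The comparison of week 1 with weeks 4, 12 and 21 describes the members early against later on the diet. Like its strain difference below, it was chosen with earlier results of these data known. Its ranks and unadjusted p-values are therefore a description and not an independent test. It used the 8 fed arrays and allowed for strain. The level filter used the mean over all 10 arrays, B6 at week 1 included, and Aurka passed it only with that array. Cdc20 was higher at week 1 by 1.91 ± 0.34 (SE, 2 against 6 arrays), Aurka by 1.73 ± 0.26 and Ccnb2 by 1.57 ± 0.34. Top2a differed by 1.32 ± 0.53, Mki67 by 1.18 ± 0.53 and Cdk1 by 1.15 ± 0.42. By limma with Benjamini-Hochberg adjustment over all genes, 0 of the 6 passed (adjusted p = 0.999 for each), and 0% of the 11062 genes did. At an unadjusted p under 0.05 there were 5 of the 6 members, against 497 of all 11062 genes. The differences of the members had a median of 1.45, against 0.00 over all genes, and ranked from the highest of 11062 they stood at 3 (Cdc20), 9 (Aurka), 13 (Ccnb2), 25 (Top2a), 37 (Mki67) and 42 (Cdk1). The value leans on both arrays of week 1: the members' median was 0.72 without the B6 array at week 1 and 2.04 without that of D2.

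In B6 alone, the differences between week 1 and the later weeks were 2.64 ± 0.34 for Cdc20 (adjusted p = 0.281), 2.24 ± 0.64 for Top2a, 2.13 ± 0.43 for Ccnb2, 1.94 ± 0.71 for Mki67, 1.89 ± 0.51 for Cdk1 and 1.85 ± 0.38 for Aurka. The adjusted p of the other 5 ranged from 0.378 to 0.65, so 0 of 6 passed, and 0 of all 11062 genes did. An unadjusted p under 0.05 was found for 6 of 6 members and 754 of all genes, from 1 array against 3. In D2 they were 1.61 ± 0.38 for Aurka, 1.18 ± 0.34 for Cdc20, 1.01 ± 0.43 for Ccnb2, and 0.41 to 0.42 for Cdk1, Top2a and Mki67, with SEs of 0.51 to 0.71. Among all genes, the rank in D2 went from 13 for Aurka to 1027 for Cdk1, while in B6 the 6 members lay between ranks 9 and 35. Aurka was among the 6 only through its high B6 array at week 1, so its B6 values here add no separate support.

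The test of the strain difference in this early change gave 0 of 6 members past the threshold, and 0% of all genes passed. At an unadjusted p under 0.05 there were 1 member and 708 genes. The change in D2 minus that in B6 was −1.83 ± 0.91 for Top2a, −1.53 ± 1.00 for Mki67, −1.48 ± 0.72 for Cdk1, −1.46 ± 0.48 for Cdc20 and −1.11 ± 0.61 for Ccnb2, each smaller in D2. For Aurka it was −0.23 ± 0.53, less than its error. Adjusted p ranged from 0.771 to 0.959, and with a single week 1 array per strain each lone array was assumed to vary like the others.

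**Figure D3:**
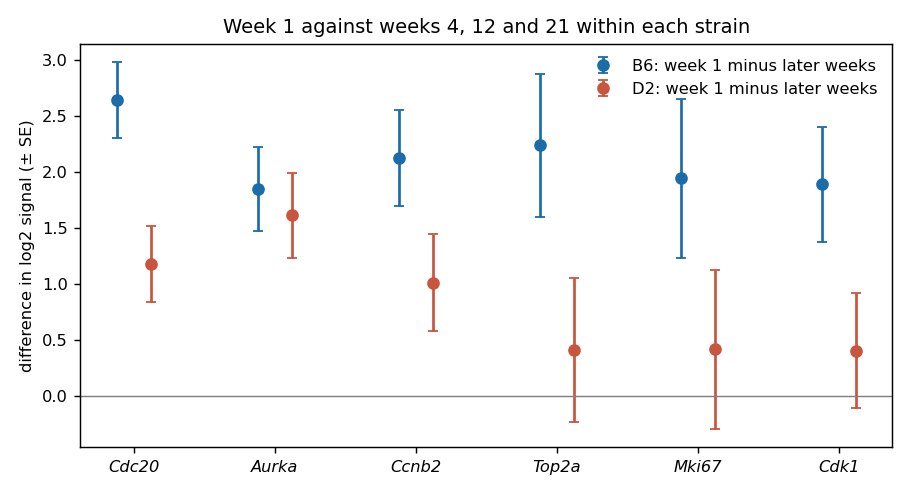
Difference in log2 signal between week 1 and weeks 4, 12 and 21 (vertical axis) for the 6 tested mitosis genes, within B6 (blue) and D2 (red); points are limma estimates and bars are ± 1 SE from 1 against 3 arrays. The B6 points lie between 1.85 and 2.64, while in D2 Top2a, Mki67 and Cdk1 have bars of 1 SE that reach below 0.

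The strain comparison over all weeks (D2 minus B6, week as a block, 5 arrays per strain) called 0 of the 6 members, against 7.98% of all genes tested. Aurka, at −0.97 ± 0.27, was the member with the smallest adjusted p (0.0674) and the 1 member of 6 with an unadjusted p under 0.05, against 2651 of all 11062 genes. It passed the threshold when either week 0 array was left out (adjusted p = 0.0423 without that of B6 and 0.0412 without that of D2). Aurka was tested because its mean of 3.89 lay just above the level filter of 3.73. That mean includes the high B6 array at week 1, and over the other arrays it would lie under the filter. The strain difference of Aurka leaned less on that array, and was −0.88 without it. Top2a differed by −0.82 ± 0.47, Cdc20 by −0.46 ± 0.28, Ccnb2 by −0.39 ± 0.27, Mki67 by −0.38 ± 0.50 and Cdk1 by −0.32 ± 0.37, with adjusted p from 0.326 to 0.692. The members' median of −0.42 was −0.17 without the week 1 arrays. Cdk1 and Mki67 then differed by 0.02 and 0.0223, towards D2, Top2a by −0.39, Cdc20 by −0.16 and Ccnb2 by −0.18.

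Fed arrays against week 0 arrays, with strain as a term, gave 0 of 6 members called, none at an unadjusted p under 0.05, and 0.633% of all genes tested were called. The members' median was −0.05, within a range of −0.15 to 0.42, and it was 0.52 within B6 and −0.67 within D2. The difference of the diet response between the strains had a median of −1.19 over the members, again with 0 of 6 called and none at an unadjusted p under 0.05, against 0.00904% of all genes. With values as deposited, not normalised between arrays, the median of all genes moved by diet to 0.52 and that of the members to 0.45, so the diet values are relative to the scaling.

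The other genes of the mitotic programme came from 4 lists of 91 entries in all, of which 40 were tested. In the week 1 comparison 36 of the 40 differences were above 0, with a median of 0.77. None of the 40 passed, 0 in either direction (19 at an unadjusted p under 0.05). Within B6 the median was 1.47 and within D2 0.25. Of the 40, 28 had their highest array in B6 at week 1. The level filter used the mean over all arrays, that one included, so genes high only there were favoured among the 40. Pbk and Cdca5, described below, passed the filter only with that array. The same limit holds for the count of DNA replication genes that follows. By list, the median of the week 1 comparison was 1.11 for 8 kinases and cyclins, 0.69 for 12 kinetochore and checkpoint genes, 1.06 for 9 spindle and cytokinesis genes and 0.53 for 11 condensin and anaphase genes. It was 0.64 for 24 DNA replication genes, 17 of them highest in B6 at week 1, and 0.30 for 12 transcriptional regulators of the cell cycle.

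Between the strains, 3 of the 40 other mitosis genes passed, each lower in D2, a share near the 7.98% of all genes. Pttg1, securin, the protein that Cdc20 and the anaphase-promoting complex destroy, differed by −2.48 ± 0.13 (adjusted p = 5.9e-05), with B6 at 9.81 to 10.19 and D2 at 7.21 to 7.79. Every B6 array lay above every D2 array, week 0 included. The same held for the other 2 called genes, Ccnf (5.01 to 6.40 in B6, 3.12 to 4.88 in D2) and Bub3 (7.76 to 8.19 and 7.36 to 7.61). Ccnf, cyclin F, differed by −1.75 ± 0.27 (adjusted p = 0.0081). Bub3, a checkpoint partner of Bub1, differed by −0.47 ± 0.11 (adjusted p = 0.0367), a call that was lost without any 1 of the 10 arrays (adjusted p 0.0551 to 0.0932) and whose difference was 0.0126 when its probe sets were averaged. With the diet, 1 of the 40 passed: Wee1, the kinase that holds Cdk1 inactive, rose by 1.55 ± 0.29 (adjusted p = 0.0428), from 5.59 to 5.68 at week 0 to 6.59 to 7.91 in the fed arrays. That call was lost without any 1 of 8 arrays, the exceptions being B6 at weeks 4 and 12, with adjusted p up to 0.235.

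Of the DNA replication genes, Rrm2, a subunit of ribonucleotide reductase, was lower in D2 (−2.54 ± 0.28, adjusted p = 0.00182), at 7.11, 8.48, 6.10, 6.69 and 6.87 in B6 and 5.48, 4.68, 4.09, 4.23 and 4.09 in D2. Mcm10, which helps start replication, was higher in D2 by 1.23 ± 0.17 (adjusted p = 0.00508), and did not pass with its probe sets averaged (0.28, adjusted p = 0.613) or without the week block (adjusted p = 0.0778). Among regulators, E2f3 and E2f5 were lower in D2 (−0.52, adjusted p = 0.0373, and −0.44, adjusted p = 0.0341), calls that were lost without any 1 array and without the week block (adjusted p = 0.0697 and 0.122). Among cyclins, CDKs and inhibitors of earlier phases, Ccng2, cyclin G2, was lower in D2 (−0.74 ± 0.14, adjusted p = 0.0186) and fell with the diet by 1.38 ± 0.18 (adjusted p = 0.0155). The first call was lost without an array of weeks 1, 12 or 21, without the week block (adjusted p = 0.263) and with probe sets averaged (adjusted p = 0.064), and the second when 1 of the week 0 arrays was left out (adjusted p = 0.07 and 0.143).

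Regulators of the members differed in their patterns. E2f1 was highest in B6 at week 1 (5.53), above 4.70 in D2 at week 4. Foxm1 and Mybl2, the gene of B-Myb, lay under the level filter. Mybl2 had 3.34 in B6 at week 1 and was highest in D2 at week 0 (3.89). Foxm1 had 4.44 in B6 at week 1 and 4.47 in D2 at week 21, and E2f8 was highest in D2 at week 0 (5.61). Ccnd1, cyclin D1 of the G1 phase, stood at 7.73, 9.74, 8.20, 7.86 and 8.51 in B6 and 7.57, 8.98, 8.07, 7.96 and 9.20 in D2, with its highest array in B6 at week 1 and a high value at week 21 in both strains, when the members were low. Cdkn1a, the CDK inhibitor p21, was highest at week 0 in both strains (9.57 in B6 and 9.25 in D2).

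The tested genes whose pattern over the 10 arrays was most like the mean of the 6 tested members were Cdca5 (sororin, a cohesin factor; r = 0.97), Pbk (a mitotic kinase; 0.96), Nup160 (a nucleoporin; 0.94), Ccna2 (cyclin A2; 0.94), Ndc1 (a nucleoporin; 0.94), D17H6S56E-5 (0.93), Cdca8 (borealin, a partner of Birc5; 0.93), Cdca3 (0.92), Stmn1 (a microtubule regulator; 0.92) and Vars (a valyl-tRNA synthetase; 0.92). Without the B6 array at week 1 these r values ran from 0.65 to 0.93. Over all genes the median r was −0.01 and the 95th percentile 0.56.

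Markers of other cell types also moved between the B6 arrays. The summed signal of macrophage markers in B6 over the weeks was 3298, 7107, 17229, 3328 and 9916, highest at week 4, and in D2 it lay between 3314 and 4752. Of 12 tested macrophage markers, 10 were highest in B6 at week 4 and 1 in B6 at week 1, whereas the members' summed signal was 653 at week 1 and 251 at week 4. Neutrophil, lymphocyte and stellate sums were also highest in B6 at week 4. The erythroid sum, 355 to 556 over the arrays, was highest in B6 at week 1, where 1 of the 4 tested erythroid markers had its highest level and their median centred level was 0.03. No list had all its markers at or near 0, and only the erythroid gene Rhag stayed under a signal of 10 on every array. The part of these cells in the members' levels was not tested.

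**Figure D4:**
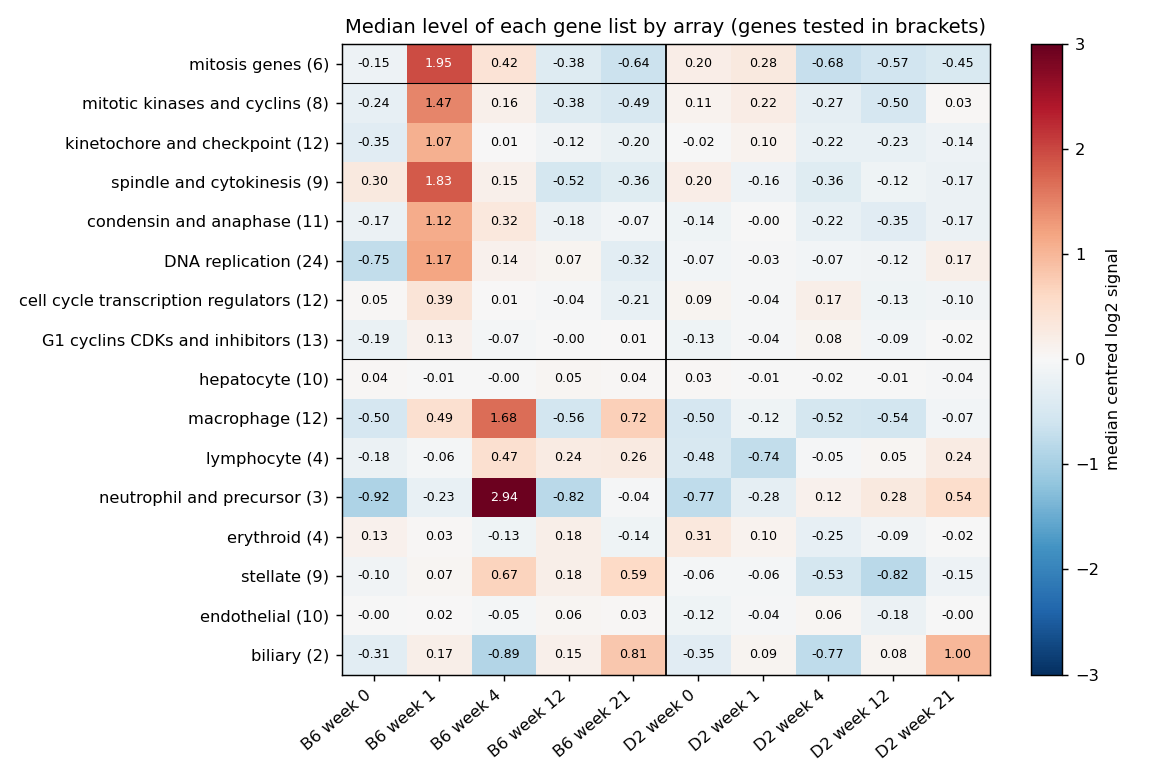
Median centred log2 signal of the tested genes of each list (rows, gene numbers in brackets) on the 10 arrays (columns; B6 left and D2 right of the line), with red above and blue below each gene's mean. The mitosis genes stand at 1.95 in B6 at week 1 and 0.42 at week 4, while the macrophage markers stand at 0.49 and 1.68 on the same arrays.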

How the data were processed

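The deposited values are intensities on a linear scale, 1 per probe set and array, which the authors computed with GCOS, per the submitters' processing notes; GCOS scaling settings are not given in the sources used here. Of 45101 probe sets, 34945 carried 1 gene symbol, 932 several and 9160 none in the platform annotation, and 64 were controls. A pseudocount of 1.05 (the 10th percentile of the signals) was added before taking log2, and arrays were quantile normalised. The highest mean log2 signal chose among a gene's probe sets, and a gene was tested where that mean exceeded the median probe set's (11062 of 18193 genes). Models were fitted with limma 3.58.1, using lmFit and then eBayes with a trend, in R 4.3.3, with Benjamini-Hochberg adjustment at a threshold of 0.05, after being tested on simulated data. Plots were drawn with matplotlib 3.10.9 in Python 3.11.15.

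Week was a block in the strain comparison (4 residual degrees of freedom), since the labels give 1 pool of each strain per week. The weeks served as replicates. The strain p-values therefore measure how the difference between the strains varied over the weeks. The p-values of the other comparisons measure the spread between pools of different weeks. The number of arrays limits the precision. The diet fit had 7, its strain difference 6, the week 1 comparison 5 and its strain difference 4 residual degrees of freedom.

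The members, the lists, the week 1 comparison and its strain difference were chosen with earlier results of these data known. Named genes were the members, up to 5 genes of each pathway list that passed a comparison, 7 fixed regulators and targets (of which Foxm1 and Mybl2 lay under the filter) and the 10 genes most correlated with the members' mean. Promoters are from RefSeq, GRCm38.p6, and describe annotated starts only. Alternatives were other scaling, pseudocount, filters, probe set rules, variance model, no week block and each array left out; leaving out both week 1 arrays and choosing probe sets by mean deposited signal were added after seeing the data.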

Additional observations from a re-analysis of the deposited data

Results flagged for a closer look

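Among the fed arrays of each strain, 18 groups of 4 values of the 9 measured members were checked for a value far from the others, a check that chance passes in about 1 in 20 groups, and 2 stood out. Aurka in B6 at week 1, at 5.85, lay far above the other fed B6 arrays, and Plk1 in D2 at week 12, at 3.43, lay far above the other fed D2 arrays. Mki67 moved in opposite directions from week 0: its mean change over the fed arrays was 1.54 in B6, where all 4 lay higher, and −0.70 in D2, where all 4 lay lower. By limma the difference between the strains was −2.24 ± 1.23 (adjusted p = 0.859), and each change rests on a single week 0 array.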

How the results depend on the processing

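The tested members kept their direction and their side of the threshold in 94 of 94 values of the week 1 comparison, 82 of 82 of its strain difference and 82 of 82 within each strain. With probe sets averaged, Aurka and Top2a were under the level filter, so that this setting covers 4 members. In the week 1 comparison 0 of all genes passed under any setting, so its members could hardly change side. Their sizes did move, with Cdk1 ranging from 0.41 to 1.89. In the strain comparison 107 of 118 values kept their direction and their side. Aurka passed with eBayes without trend, so 1 member was called there, and leaving out single arrays called 0 to 1 members (1 without either week 0 array). Without both week 1 arrays, Cdk1 turned to 0.02 and Mki67 to 0.0223; leaving out single arrays, Cdk1 ranged from −0.59 to 0.02 and Mki67 from −0.82 to 0.0223, turning also without either week 4 array (0.0113). Bub3 turned to 0.0126 with its probe sets averaged. Without the week block 0 members were called, but the strain calls of Ccng2, Mcm10, E2f3 and E2f5 were lost. The cause was not tested. Counts over all genes moved by more than 1.5 times: strain, 883 against 386 to 559 without an array of week 4, 12 or 21 and 586 without both week 1 arrays; diet, 70 against 4990 as deposited, 313 with median centring, 14 without either week 0 array, and 30 and 36 without D2 at weeks 4 and 21. The 1 call of the diet difference fell to 0 with a pseudocount of 16, averaged probe sets, no trend, without both week 1 arrays, or without single fed arrays other than D2 at week 12, and the strain difference of the week 1 comparison gave 1 call without that array. Without a week 1 array the values within that strain and their difference, and without a week 0 array the diet difference, could not be fitted. With probe sets chosen by mean deposited signal, Cdc20 differed at week 1 by 2.44. Low signal limits Bub1 and Plk1 most, and no estimate covers the spread between mice.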
